A study of Mus musculus with 9 samples.

Results

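The transcriptome of imiquimod-treated mouse back skin was compared with that of vaseline-treated back skin across all genes, from the raw read counts of 3 libraries for each treatment, 6 of the 9 libraries in the study. All mice were wild-type BALB/c animals (strain label SPF Balb/c), aged 6 to 8 weeks, and the back of each was shaved. The IMQ group was challenged with imiquimod (IMQ) for 7 days, and the vaseline group received vaseline for 7 days. The 3 remaining libraries came from IMQ-challenged skin also given bergapten. They entered the filter on low counts, the scaling and the estimate of the spread, but not the comparison itself. The labels give no sex, no IMQ dose and no hour of collection. They do not say whether the libraries of a group came from separate animals, so the p-values rest on a spread that may be technical.

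IMQ activates Toll-like receptor 7, which senses single-stranded RNA in endosomes, and its repeated application to mouse skin is a widely used model of psoriasis-like inflammation. Back skin holds an epidermis of keratinocytes, hair follicles with sebaceous glands, a dermis of fibroblasts and collagen, fat, and a thin sheet of skeletal muscle. Keratins, antimicrobial peptides, cytokines and collagens are the genes usually followed in this model. The account below is mainly of the transporters, enzymes, transcription factors, receptors and secreted signals outside them. Levels are given as CPM, the read counts scaled to a common library size with a correction for library composition, which say nothing of one gene's level relative to another, since gene length is not taken into account. Fold changes and the amounts by which a gene rose are on the log2 scale, and positive where IMQ skin was higher. A gene is said to rise or fall, and is counted as higher or lower, where the edgeR quasi-likelihood test gave a two-sided adjusted p under 0.05 over all 18005 genes tested.

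At that threshold 4143 genes (23%) rose and 3640 (20.2%) fell in IMQ skin, together 43.2% of the genes tested. The 3 IMQ values all lay above the 3 vaseline values for 26.9% of genes and all below them for 25.4%. Falls were more numerous among moderate changes and rises among extreme ones. At least 2-fold, 1423 genes (7.9%) rose and 1876 (10.4%) fell. At least 8-fold, 292 rose and 305 fell. At least 32-fold, 126 rose and 60 fell, and at least 64-fold, 89 rose and 36 fell. These classes use fitted fold changes, also for genes with no count in 1 group, whose fitted size can exceed what the counts bear. Chat was fitted as 301-fold lower, while its counts give at least 39.6-fold, as set out below. The mass of transcripts lay differently. The 12 largest gains in mean CPM, led by Krt1, S100a9 and Krt14, added up to 32283 CPM. The 12 largest losses, led by Col1a2, Col1a1 and Col3a1, added up to -112355 CPM. Krt1, a keratin of the layers above the basal epidermis, had 7547, 8960.0 and 5151 CPM in the IMQ libraries and 1299.8, 1166 and 1180.4 CPM in the vaseline libraries. Col1a2, a chain of type I collagen, had 2109, 3732 and 5382 CPM in the IMQ libraries and 33470.5, 33070.4 and 32694 CPM in the vaseline libraries.

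**Figure D1:**
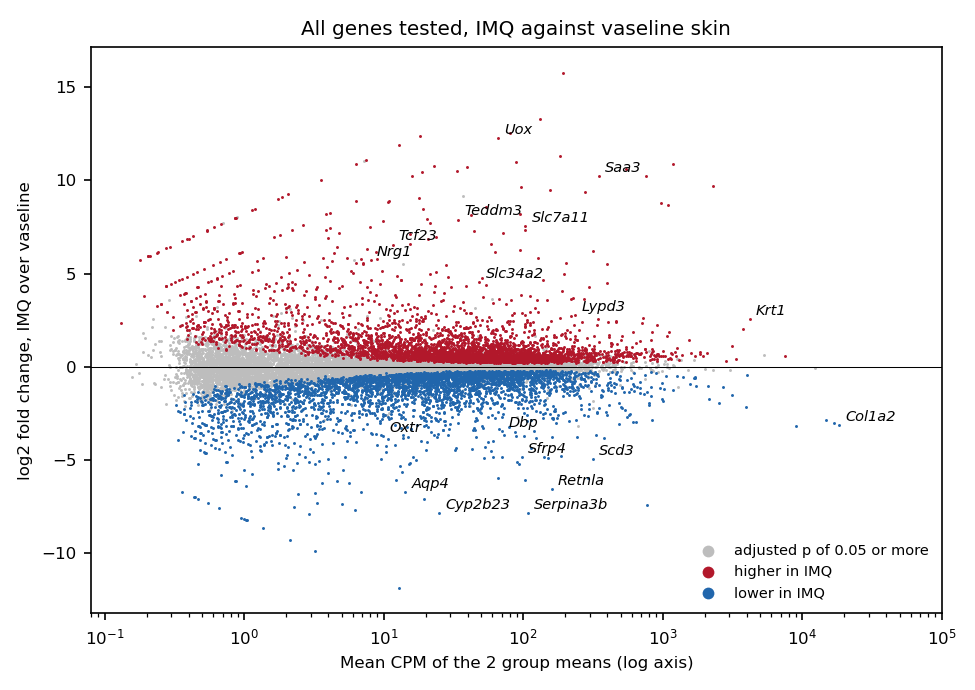
Each of the 18005 genes tested, with the mean of its 2 group means on the horizontal axis (CPM, log axis) and its log2 fold change on the vertical axis; red genes rose, blue genes fell and grey genes did not pass an adjusted p of 0.05. Uox and Saa3 lie above 10, Cyp2b23 and Serpina3b below -7, and the straight tracks at the left are genes with no or very few counts in 1 group.

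A small number of genes had no count at all on one side. In vaseline skin 9 genes had no count while every IMQ library held at least 1 CPM, and 9 genes had no count in IMQ skin while every vaseline library held at least 1 CPM. The first 9 included Lce3f, Sprr2b and Sprr2k of the cornified envelope and the serpin Serpinb3d, all members of families with similar copies that may share reads, and also Fgf23, a circulating hormone of phosphate balance made mainly in bone. Fgf23 had 7.64, 1.46 and 3.35 CPM in the IMQ libraries and 0, 0 and 0 CPM in the vaseline libraries (ENSMUSG00000000182, chromosome 6, 127049865 to 127058371, plus strand, on GRCm39 as all coordinates below unless stated). It was at least 70.1-fold higher, taking 3 counts over the vaseline group as the floor. Leaving out 1 library put this bound between 40.8-fold, without IMQ replicate 1, and 91.9-fold, without IMQ replicate 2. The second 9 included Chat, the acetylcholine-synthesising enzyme, with 0, 0 and 0 CPM in the IMQ libraries and 2.3, 1.96 and 1.9 CPM in the vaseline libraries. It was at least 39.6-fold lower on the same floor. Mrgprb11-ps, a pseudogene of a family of sensory neuron receptors, was at least 491-fold lower, with 0, 0 and 0 CPM in the IMQ libraries and 26, 23.9 and 26.7 CPM in the vaseline libraries.

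The 6 libraries held 16080479 to 19456060 counted reads. The first principal component of the 6 libraries took 73.5% of the variance and separated the groups, and the second (11.9%) set IMQ replicate 2, at -58.1, apart from IMQ replicate 3, at 42.8. The mean variance of log2 CPM within a group was 0.238 in IMQ skin and 0.1002 in vaseline skin. The 4 sex-linked genes tested, all on the Y chromosome, were counted in all 6 libraries and none passed, so each library held male tissue. Of these Ddx3y had 132, 94.1 and 98.7 CPM in the IMQ libraries and 97.1, 103 and 129 CPM in the vaseline libraries. Hair follicle growth-phase transcripts were high in IMQ replicate 3. The 9 markers of that phase that were tested had summed CPM of 18.8, 23 and 982 in the IMQ libraries and 19, 19.3 and 15.9 in the vaseline libraries, and 2 of the 9, Krt71 and Padi3, passed as higher. Krt35 had no count in IMQ replicates 1 and 2, while Tchh was counted in every library. In vaseline skin the immediate early genes Fos, Fosb, Jun, Junb, Atf3, Egr1, Ier2 and Klf4 differed between libraries, and their summed CPM was 1751, 2257 and 1045 in the IMQ libraries and 823, 1761 and 5487 in the vaseline libraries. No gene of the 8 passed, the lowest adjusted p being 0.08 for Atf3.

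Tissue markers moved with the treatment, and they are given here because they bear on every family described. Their counts stand beside the 23% of all genes tested that rose and the 20.2% that fell. Fibroblast markers had summed CPM of 8339, 13126 and 19552 in the IMQ libraries and 92814, 99466 and 92599.8 in the vaseline libraries, with 6 of 7 lower and 1 higher. Most of the vaseline sum came from the collagen genes Col1a1, Col1a2 and Col3a1. Fold changes of the 7 markers ran from -3.14 to 0.51, and that of Dcn was -1.08. Skeletal muscle markers had summed CPM of 4689.8, 6529 and 5954 in the IMQ libraries and 16773, 18019 and 18163 in the vaseline libraries, with 9 of 10 lower and fold changes from -4.93 to -0.25. Sebaceous gland markers had summed CPM of 1907, 1326 and 848 in the IMQ libraries and 6404, 5056 and 4705 in the vaseline libraries, with 8 of 9 lower. Neutrophil markers had summed CPM of 8124, 3868 and 9658 in the IMQ libraries and 35.4, 43.6 and 47 in the vaseline libraries, with 7 of 8 higher and Ly6g at 0 in every vaseline library. Most of the mean IMQ sum came from S100a8 and S100a9, so the sum mainly follows these genes. S100a9 is named above among the largest gains in mean CPM. Retnlg, another of the 8, had 72.8, 13.9 and 13.6 CPM in IMQ skin, against 1.43, 3.4 and 2.26 CPM in vaseline skin. Its order among the IMQ libraries was not that of the sum. Markers of the basal keratinocyte had summed CPM of 10372, 7400.1 and 10086 in the IMQ libraries and 4607, 4273 and 4197 in the vaseline libraries. Of these 4 of 5 were higher, and Krt15, a keratin of the hair follicle bulge and basal layer, fell with 93.2, 265 and 124 CPM in IMQ skin, against 931, 978 and 1030.2 CPM in vaseline skin (log2 fold change -2.61, SE 0.37). Suprabasal keratinocyte markers had summed CPM of 14285, 19369.5 and 9649 in the IMQ libraries and 5322, 4914 and 5237 in the vaseline libraries. Krt1, Krt10 and Krtdap were higher, and Lor (adjusted p = 0.592) and Dsg1a (adjusted p = 0.699) did not pass. The summed CPM of adipocyte markers overlapped between the groups, at 3947, 934 and 1677 in the IMQ libraries and 3670.2, 3694 and 3565 in the vaseline libraries. For 4 of the 8 markers the groups did not overlap, beside 52.3% of all genes tested. The 8 markers had a median log2 fold change of -0.99, with 1 of 8 lower. That marker, Lep, did not pass under 8 of the 11 alternatives, among them without IMQ replicate 1 and without any single vaseline library, with an adjusted p of up to 0.0957. Endothelial markers had summed CPM of 719, 620.3 and 557 in the IMQ libraries and 432, 504 and 468 in the vaseline libraries, with 3 of 6 higher and 1 lower. In whole skin, fewer cells of a type and less RNA per cell cannot be told apart. The part of these shifts in the changes of single genes was not tested.

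**Figure D2:**
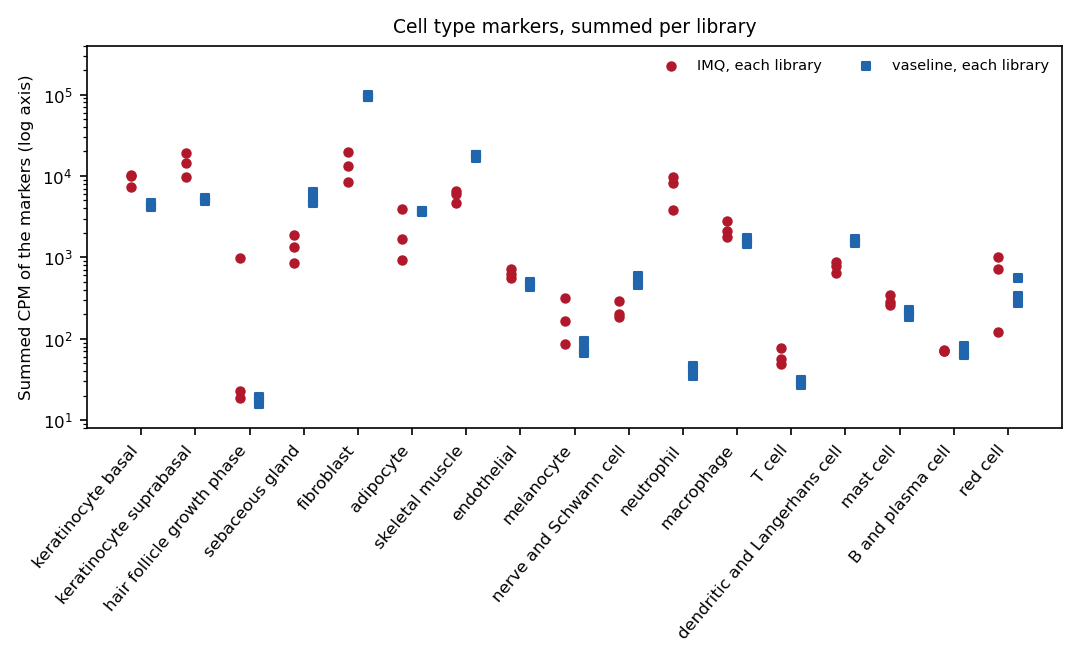
Summed CPM of the markers of 17 cell types (log axis), 1 symbol per library, with IMQ libraries as red circles left of the vaseline libraries as blue squares. Neutrophil sums lie between 3868 and 9658 in IMQ libraries, mostly from S100a8 and S100a9, against 35.4 to 47.0 in vaseline libraries. Fibroblast and muscle sums lie lower in every IMQ library, and the hair follicle sum is high in IMQ replicate 3 alone.

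Across 30 gene families outside the usual psoriasis genes, which held 2682 different genes tested, 706 rose and 781 fell. That is 26.3% and 29.1% of members, against 23% and 20.2% of all genes tested. The median log2 fold change was -0.07, against 0.03 over all genes. Growth factors and their binding proteins had the highest share of falls (63 of 132, 47.7%), followed by conjugation and carbonyl enzymes (46 of 103, 44.7%) and potassium, sodium and calcium channels (42 of 105, 40%). Amino acid and nucleotide enzymes had the highest share of rises (39 of 83, 47%), followed by lectin, scavenger and immunoglobulin-like receptors (55 of 139, 39.6%). These shares are a description of the families, which were defined by symbol, and no test of a family was made. The counts of each family and marker set below stand beside the same 23% of all genes tested that rose and 20.2% that fell.

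**Figure D3:**
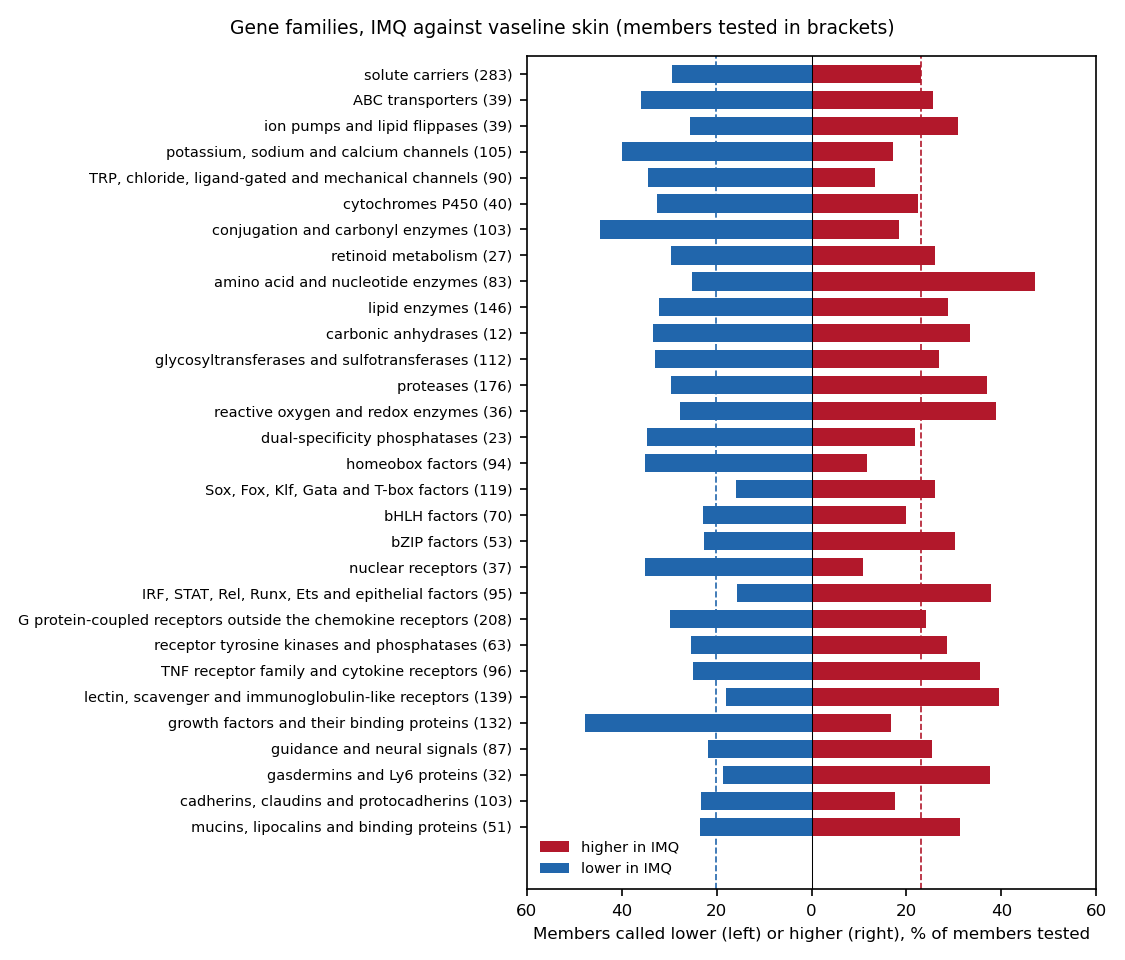
For each gene family, the members that fell (blue, left) and rose (red, right) in IMQ skin as a percentage of the members tested, whose number stands in brackets; dashed lines mark 20.2% and 23%, the shares of all genes tested that fell and rose. Growth factors, conjugation enzymes and ion channels lean to falls, and amino acid and nucleotide enzymes, lectin receptors and the IRF to epithelial factor group lean to rises.

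Of solute carriers, the membrane proteins that move nutrients, ions and metabolites, 65 of 283 (23%) were higher in IMQ skin and 83 (29.3%) lower. Of all genes tested 23% rose, the same share, and 20.2% fell. The median log2 fold change of the carriers was -0.11. Their summed CPM overlapped between the groups, at 11383, 12027 and 10899 in the IMQ libraries and 11051, 11054 and 10799.7 in the vaseline libraries, while single carriers differed many-fold. Slc7a11, the cystine/glutamate exchanger that supplies cystine for glutathione (ENSMUSG00000027737, chromosome 3, 49846975 to 50398063, minus strand), had 254, 104 and 261 CPM in IMQ skin, against 1.32, 0.981 and 0.951 CPM in vaseline skin. All 3 IMQ libraries lay far above all 3 vaseline libraries, with replicate 2 the lowest of the IMQ libraries (log2 fold change 7.56, SE 0.53, adjusted p = 2.15e-05). Its heavy-chain partner Slc3a2, given here as the partner and not by size of change, rose by 0.76 with 196, 219 and 213 CPM in IMQ skin, against 119.5, 126 and 125 CPM in vaseline skin. Slc34a2, a sodium-dependent phosphate transporter best known from lung and intestine (ENSMUSG00000029188, chromosome 5, 53195423 to 53229006, plus strand), had 87, 105 and 87.3 CPM in IMQ skin, against 5.04, 3.66 and 3.39 CPM in vaseline skin (log2 fold change 4.52, SE 0.18, adjusted p = 2.6e-07). Slc5a1, the intestinal sodium-glucose transporter SGLT1, had 114, 129.5 and 128 CPM in IMQ skin, against 11.8, 9.02 and 9.57 CPM in vaseline skin (log2 fold change 3.61, SE 0.20, adjusted p = 1.92e-06). Slc23a4, a member of the nucleobase and ascorbate transporter family, had 6.13, 7.12 and 7.82 CPM in IMQ skin, against 0.658, 0.392 and 0.535 CPM in vaseline skin (log2 fold change 3.70, SE 0.27). In Slc34a2, Slc5a1 and Slc23a4 the IMQ libraries were closely grouped relative to their distance from vaseline skin.

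Other carriers fell. Slc2a12, a glucose transporter of muscle and fat, had 4.37, 6.09 and 3.91 CPM in IMQ skin, against 32.8, 34.5 and 36 CPM in vaseline skin (log2 fold change -2.84, SE 0.18, adjusted p = 2.31e-06). Slc9a2, a sodium/proton exchanger, had 0.728, 0.485 and 0.813 CPM in IMQ skin, against 4.77, 6.47 and 6.66 CPM in vaseline skin (log2 fold change -3.13, SE 0.31). Slco5a1, an organic anion transporter relative, had 2.39, 1.29 and 4.17 CPM in IMQ skin, against 16.2, 11.7 and 15.8 CPM in vaseline skin (log2 fold change -2.47, SE 0.35). Slc26a7, an anion exchanger, fell by 2.79 on the log2 scale, and IMQ replicate 3 was the highest of its IMQ libraries, the fold change being -3.54 without IMQ replicate 3. Of the glucose carriers named here, Slc5a1 was higher and Slc2a12 lower in all 3 IMQ libraries. Slc2a12 overlaps Tbpl1 on the opposite strand.

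Among ABC transporters, which pump substrates across membranes with ATP, 10 of 39 were higher in IMQ skin and 14 lower, with a median log2 fold change of -0.15. The rises included lipid transporters of the epidermal barrier and of cholesterol export. Abca12, which loads glucosylceramide into the lamellar bodies of keratinocytes, had 274, 344 and 281 CPM in IMQ skin, against 107, 81.2 and 103 CPM in vaseline skin (log2 fold change 1.63, SE 0.13). Abcg1, a cholesterol exporter, had 109.5, 112 and 70.3 CPM in IMQ skin, against 32.1, 27.6 and 25.5 CPM in vaseline skin (log2 fold change 1.78, SE 0.17). Abcc3, an exporter of organic anions, rose by 1.04. The falls included Abca5 (17.4, 20.2 and 13.2 CPM in IMQ skin, against 58.3, 56.6 and 66.4 CPM in vaseline skin; log2 fold change -1.84, SE 0.15), and Abcd2, a peroxisomal importer of very long-chain fatty acids, which had 49.2, 23.2 and 32.4 CPM in IMQ skin, against 121, 119 and 125 CPM in vaseline skin (log2 fold change -1.80, SE 0.25). Abcb4, a phospholipid floppase, fell by 1.80 on the log2 scale, and Abca8b by 1.63.

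Ion pumps and lipid flippases were balanced: 12 of 39 were higher in IMQ skin and 10 lower, with a median log2 fold change of 0.00. Atp13a4, a P5-type ATPase related to polyamine transporters (ENSMUSG00000038094, chromosome 16, 29214671 to 29363682, minus strand), was near the detection limit in vaseline skin, with 17.2, 11.8 and 23.5 CPM in IMQ skin, against 0.384, 0.196 and 0.357 CPM in vaseline skin (log2 fold change 5.76, SE 0.33, adjusted p = 1.46e-06). Atp2c2, a calcium and manganese pump of the secretory pathway, had 35.7, 49.5 and 46.4 CPM in IMQ skin, against 10.4, 10.1 and 9.75 CPM in vaseline skin (log2 fold change 2.12, SE 0.17). Regulatory subunits of the sodium-potassium pump moved in both directions. Atp1b3 rose (log2 fold change 0.69, SE 0.09). Atp1b1 and Atp1b2 fell, the first with 42.3, 86.4 and 40.4 CPM in IMQ skin, against 152, 175 and 191 CPM in vaseline skin (log2 fold change -1.61, SE 0.27) and the second with 10.9, 14.3 and 11.7 CPM in IMQ skin, against 47.6, 51.8 and 50.6 CPM in vaseline skin (log2 fold change -2.02, SE 0.13).

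Ion channels leaned to falls. Of potassium, sodium and calcium channel genes, 18 of 105 were higher in IMQ skin and 42 lower, with a median log2 fold change of -0.54. Of the TRP, chloride, ligand-gated and mechanically gated channels, 12 of 90 were higher in IMQ skin and 31 lower, with a median log2 fold change of -0.28. A pair of inward rectifier potassium channels that can assemble with each other moved in opposite directions. Kcnj10 had 6.55, 5.44 and 6.05 CPM in IMQ skin, against 0.384, 0.262 and 0.654 CPM in vaseline skin (log2 fold change 3.77, SE 0.29, adjusted p = 7.61e-06). Kcnj16 had 0.208, 0.539 and 0.356 CPM in IMQ skin, against 4.39, 4.9 and 7.37 CPM in vaseline skin (log2 fold change -3.90, SE 0.37, adjusted p = 2.78e-05). Kcnh1, a voltage-gated potassium channel, rose with 25.9, 19.5 and 17.6 CPM in IMQ skin, against 2.74, 2.03 and 1.6 CPM in vaseline skin (log2 fold change 3.30, SE 0.24). Trpv3, a warmth-sensing channel of keratinocytes, rose by 1.01 with 45.1, 40.9 and 44.5 CPM in IMQ skin, against 25.7, 20.8 and 18.3 CPM in vaseline skin. Trpm2, a channel opened by oxidative stress and prominent in neutrophils, rose by 3.27 and its fold change was 2.63 without IMQ replicate 1. Among the falls, Clcn1, the chloride channel of skeletal muscle, had 4.26, 0.647 and 3.51 CPM in IMQ skin, against 27.6, 23.9 and 28.8 CPM in vaseline skin (log2 fold change -3.25, SE 0.47). Scn4b, a sodium channel subunit, had 12.3, 10.2 and 22.5 CPM in IMQ skin, against 94.6, 95.3 and 101 CPM in vaseline skin (log2 fold change -2.69, SE 0.25), and Cacng6, a subunit of muscle calcium channels, fell by 2.75 on the log2 scale. Skeletal muscle markers had a median log2 fold change of -1.63 beside them. Nerve and Schwann cell markers had summed CPM of 186, 293 and 202 in the IMQ libraries and 458, 591 and 494 in the vaseline libraries, with 3 of 6 lower. P2rx2, an ATP-gated channel of sensory nerves, had 1.51, 0.97 and 1.07 CPM in IMQ skin, against 8.5, 8.04 and 7.91 CPM in vaseline skin (log2 fold change -2.78, SE 0.29). Gabra3, a GABA receptor subunit, had 4.83, 5.34 and 3.76 CPM in IMQ skin, against 14.6, 22.5 and 19.1 CPM in vaseline skin (log2 fold change -2.01, SE 0.23).

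Cytochromes P450, the haem enzymes that oxidise drugs, steroids and lipids, split as follows: 9 of 40 were higher in IMQ skin and 13 lower, with a median log2 fold change of -0.29. Cyp2b23 (ENSMUSG00000040650, chromosome 7, 26364652 to 26385862, minus strand) had the lowest fold change of the family, with 0.312, 0 and 0.305 CPM in IMQ skin, against 46.1, 60.8 and 41.4 CPM in vaseline skin (log2 fold change -7.84, SE 0.43, adjusted p = 1.67e-06). Cyp2j12 had 1.2, 0.701 and 0.457 CPM in IMQ skin, against 27.2, 33.5 and 27.6 CPM in vaseline skin (log2 fold change -5.22, SE 0.43), and Cyp4f37 had 0.416, 0.323 and 0.305 CPM in IMQ skin, against 9.76, 9.28 and 11.8 CPM in vaseline skin (log2 fold change -4.86, SE 0.45). In all 3 genes every IMQ library lay below 2 CPM. Cyp2g1, known from olfactory mucosa, rose with 8.42, 11.1 and 4.27 CPM in IMQ skin, against 0.493, 0.131 and 0.297 CPM in vaseline skin (log2 fold change 4.62, SE 0.55). Cyp7b1, an oxysterol hydroxylase, had 43.1, 28.8 and 53.7 CPM in IMQ skin, against 7.35, 7.85 and 7.19 CPM in vaseline skin (log2 fold change 2.49, SE 0.28). Cyp1b1, an enzyme of the aryl hydrocarbon response, rose by 1.17 with 107, 190.3 and 87.3 CPM in IMQ skin, against 50.7, 56 and 64.3 CPM in vaseline skin.

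Among conjugation and carbonyl enzymes, 19 of 103 were higher in IMQ skin and 46 lower, with a median log2 fold change of -0.42. The rises included Gsto1, an omega-class glutathione transferase, with 147, 136 and 111 CPM in IMQ skin, against 29.4, 24.5 and 25.7 CPM in vaseline skin (log2 fold change 2.30, SE 0.13), and Sult2b1, the cholesterol sulfotransferase of the epidermis, with 58.8, 66 and 64.6 CPM in IMQ skin, against 12.5, 16 and 15.8 CPM in vaseline skin (log2 fold change 2.10, SE 0.13). Ces2f, a carboxylesterase, rose by 2.72. The falls included steroid-handling enzymes. Hsd3b6, a 3-beta-hydroxysteroid dehydrogenase, had 2.08, 1.46 and 2.34 CPM in IMQ skin, against 21.9, 28.2 and 26 CPM in vaseline skin (log2 fold change -3.69, SE 0.38). Sult1e1, the oestrogen sulfotransferase, had 0, 0 and 0.254 CPM in IMQ skin, against 5.98, 10.7 and 4.7 CPM in vaseline skin (log2 fold change -6.25, SE 0.81). Without IMQ replicate 3 no IMQ count was left, and it was at least 88.1-fold lower, taking 3 counts over the IMQ group as the floor. Ces4a, a carboxylesterase, had 25.6, 13.6 and 9.4 CPM in IMQ skin, against 249.6, 243 and 206 CPM in vaseline skin (log2 fold change -3.84, SE 0.50). Adh6a, an alcohol dehydrogenase, had 4.11, 5.39 and 0.711 CPM in IMQ skin, against 40, 46 and 41.9 CPM in vaseline skin (log2 fold change -3.65, SE 0.64).

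Retinoid metabolism had no common direction: 7 of 27 were higher in IMQ skin and 8 lower, with a median log2 fold change of -0.13. Retinol is bound by carrier proteins, esterified for storage, oxidised to retinoic acid and broken down. The cellular carrier Rbp2, known from the absorbing cells of the intestine (ENSMUSG00000032454, chromosome 9, 98368168 to 98391834, plus strand), had 55.5, 61.9 and 55 CPM in IMQ skin, against 2.96, 3.33 and 2.56 CPM in vaseline skin (log2 fold change 4.28, SE 0.15, adjusted p = 2.44e-07). The esterifying enzyme Lrat had 27.6, 23.1 and 20.4 CPM in IMQ skin, against 8.06, 4.25 and 7.31 CPM in vaseline skin (log2 fold change 1.85, SE 0.22). Dhrs9, a dehydrogenase that oxidises retinol, had 35, 41.3 and 48.3 CPM in IMQ skin, against 5.21, 5.75 and 6.78 CPM in vaseline skin (log2 fold change 2.81, SE 0.15, adjusted p = 9.91e-07). Crabp2, a carrier of retinoic acid, had 83, 142 and 79.1 CPM in IMQ skin, against 41.2, 36.9 and 34.6 CPM in vaseline skin (log2 fold change 1.43, SE 0.23). The blood carrier Rbp4 fell with 12.6, 4.31 and 13.9 CPM in IMQ skin, against 56.4, 52.1 and 43.2 CPM in vaseline skin (log2 fold change -2.30, SE 0.38). Rdh1, another retinol dehydrogenase, had 25.4, 29.3 and 20.5 CPM in IMQ skin, against 92, 115 and 90.1 CPM in vaseline skin (log2 fold change -1.98, SE 0.21).

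**Figure D4:**
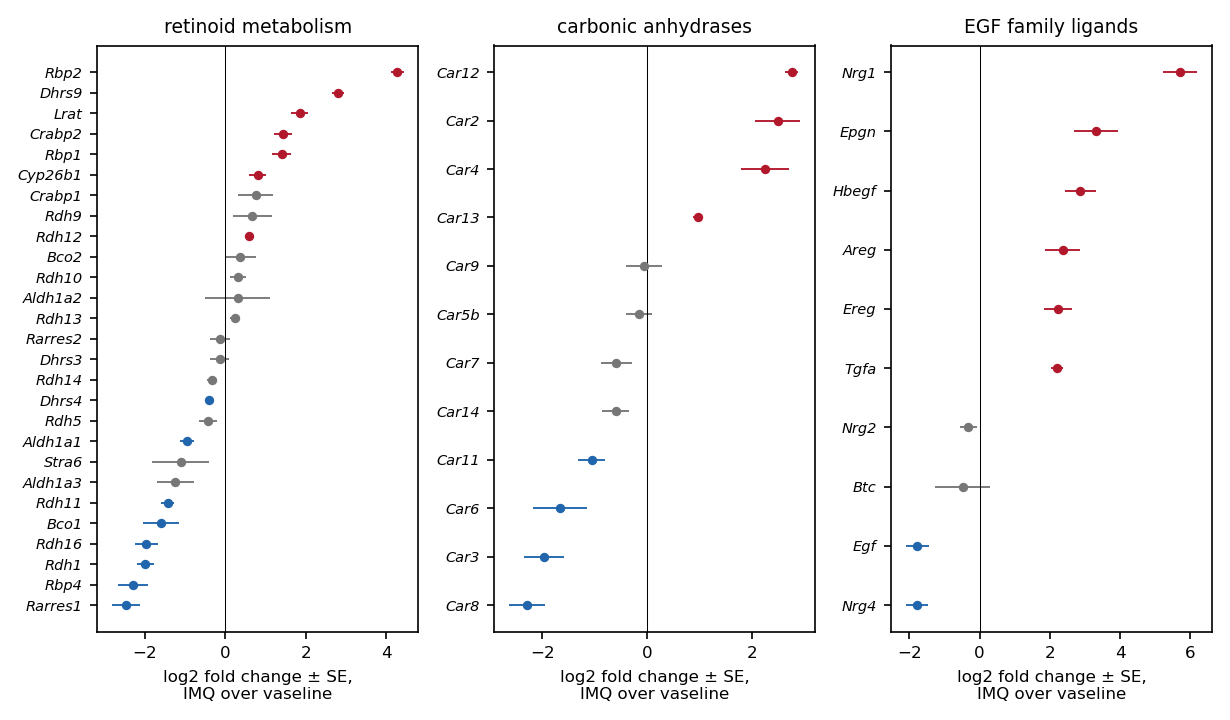
log2 fold change of IMQ over vaseline (points) with its standard error (bars) for every tested member of retinoid metabolism (27), the carbonic anhydrases (12) and the EGF family ligands (10); red members rose, blue members fell and grey members did not pass. Rbp2 and Dhrs9 stand at the top of the first panel and Rarres1 and Rbp4 at the bottom, Car12 and Car8 at the ends of the second, and Nrg1 and Nrg4 at the ends of the third.

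Amino acid and nucleotide enzymes leaned to rises: 39 of 83 were higher in IMQ skin and 21 lower, with a median log2 fold change of 0.45. The largest fold change of the family belonged to Uox, urate oxidase (ENSMUSG00000028186, chromosome 3, 146276181 to 146338060, plus strand), an enzyme of the rodent liver that breaks uric acid down and that humans have lost. Uox had 107, 61.9 and 229 CPM in IMQ skin, against 0, 0 and 0.0594 CPM in vaseline skin, where vaseline skin held 1 read in all. The ratio of IMQ to vaseline CPM was 6763 (95% counting interval 1213 to 267141), an interval that covers counting error only. The test gave an adjusted p of 9.48e-05, and the ratio ran from 4283, without IMQ replicate 3, to 8499, without IMQ replicate 2, when a library other than vaseline replicate 3 was left out. Without vaseline replicate 3, which held that read, Uox was at least 1501-fold higher on the floor of 3 counts. Uox overlaps Dnase2b in part, which lies on the opposite strand and had far fewer counts. The enzymes on either side of Uox in the same route also rose. Xdh, the xanthine dehydrogenase that makes urate, had 676, 607 and 601 CPM in IMQ skin, against 339, 359.8 and 317 CPM in vaseline skin (log2 fold change 0.89, SE 0.09), and Urah, which acts on the product of Uox, had 241, 150.4 and 266 CPM in IMQ skin, against 23.5, 21.8 and 28.2 CPM in vaseline skin (log2 fold change 3.16, SE 0.23). These 3 enzymes were put side by side for their place in the route, after their values were seen.

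Further changes of the same family included immune and cross-linking enzymes. Acod1, which makes itaconate in activated macrophages, had 8.83, 2.16 and 12.7 CPM in IMQ skin, against 0.11, 0 and 0.0594 CPM in vaseline skin, with 3 reads in vaseline skin. Its ratio was 134 (95% counting interval 45.6 to 652), and it was 257 (45.8 to 10153) without vaseline replicate 1. Tgm3, a transglutaminase of the cornified envelope, had 311, 137 and 378 CPM in IMQ skin, against 27.1, 19.7 and 22.8 CPM in vaseline skin (log2 fold change 3.57, SE 0.41). Upp1, which splits uridine, had 24.2, 10.1 and 21.7 CPM in IMQ skin, against 3.34, 2.75 and 2.02 CPM in vaseline skin (log2 fold change 2.78, SE 0.34, adjusted p = 0.00016). Pycr1, an enzyme of proline synthesis, had 0.52, 0.755 and 1.78 CPM in IMQ skin, against 18.7, 23.5 and 17 CPM in vaseline skin (log2 fold change -4.26, SE 0.40), and its fold change was -4.97 without IMQ replicate 3. Gamt, an enzyme of creatine synthesis, had 3.69, 2.64 and 4.57 CPM in IMQ skin, against 15.7, 21.6 and 16.6 CPM in vaseline skin (log2 fold change -2.30, SE 0.28), and Ampd1, the AMP deaminase of muscle, fell by 2.29 on the log2 scale.

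Promoter sequences are shown for 4 genes that rose and whose window held a match to the AP-1 or the kappaB motif, the DNA words bound by factors that many inflammatory signals switch on, to let the place of the match be seen. Il1rn, the IL-1 receptor antagonist, had 111, 91.4 and 147 CPM in IMQ skin, against 27.1, 23.7 and 25.7 CPM in vaseline skin (log2 fold change 2.19, SE 0.19, adjusted p = 2.21e-05). Cdhr1, a photoreceptor cadherin, had 32.9, 18.7 and 40.9 CPM in IMQ skin, against 0.164, 0.131 and 0.357 CPM in vaseline skin (log2 fold change 7.10, SE 0.45, adjusted p = 4.9e-06). The windows run from 250 bases before to 50 bases after the annotated start, come from RefSeq on GRCm38.p6 and are written 5′ to 3′ on the gene's strand. Capitals mark TGANTCA, the AP-1 motif, in Upp1 (chr11:9117758-9118057, plus strand), Dhrs9 (chr2:69380212-69380511, plus strand) and Il1rn (chr2:24336610-24336909, plus strand). They mark the kappaB motif (GGGA, any base, TTTCC), read on the other strand, in Cdhr1 (chr14:37098298-37098597, minus strand). The matches begin 45, 18, 141 and 238 bases before the start in the order given.
Upp1: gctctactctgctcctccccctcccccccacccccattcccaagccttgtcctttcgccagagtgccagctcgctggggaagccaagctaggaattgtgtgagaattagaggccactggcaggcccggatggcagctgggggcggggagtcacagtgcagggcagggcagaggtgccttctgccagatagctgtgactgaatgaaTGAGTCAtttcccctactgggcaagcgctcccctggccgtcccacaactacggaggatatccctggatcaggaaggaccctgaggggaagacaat
Dhrs9: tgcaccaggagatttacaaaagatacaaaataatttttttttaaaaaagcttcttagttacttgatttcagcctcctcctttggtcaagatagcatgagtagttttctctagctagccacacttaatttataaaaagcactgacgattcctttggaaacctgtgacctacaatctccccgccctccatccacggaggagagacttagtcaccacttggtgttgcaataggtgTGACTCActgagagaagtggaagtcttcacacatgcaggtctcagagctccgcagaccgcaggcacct
Il1rn: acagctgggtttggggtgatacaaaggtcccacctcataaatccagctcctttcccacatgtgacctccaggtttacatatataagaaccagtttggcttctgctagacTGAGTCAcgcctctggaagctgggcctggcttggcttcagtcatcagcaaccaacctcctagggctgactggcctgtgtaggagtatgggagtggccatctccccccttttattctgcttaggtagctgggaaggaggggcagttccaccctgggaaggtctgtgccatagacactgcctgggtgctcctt
Cdhr1: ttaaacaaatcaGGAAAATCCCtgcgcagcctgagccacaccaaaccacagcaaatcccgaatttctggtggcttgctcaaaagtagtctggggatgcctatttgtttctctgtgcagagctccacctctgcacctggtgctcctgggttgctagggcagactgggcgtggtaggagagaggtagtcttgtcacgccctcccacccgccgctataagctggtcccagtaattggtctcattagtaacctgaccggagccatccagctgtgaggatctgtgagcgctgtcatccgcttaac

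Of the 276 genes taken by the naming rule 208 had a RefSeq window, as had 12470 of the 17432 genes tested with a symbol. Where a gene had several windows the first listed was used, and both strands were searched. TGANTCA was found in 15.1% of the 345 windows of genes that rose at least 4-fold and in 7.9% of the 481 windows of genes that fell at least 4-fold. It was found in 5.87% of the windows of all genes tested and in 7.81% of all 32851 windows. The kappaB motif was found in 2.32%, 0.416%, 0.465% and 0.411% of the same 4 sets. AACCGGTT, the Grainyhead motif, was found in 1 of the 345 rising windows (0.29%), 0 of the 481 falling windows and 0.233% of tested windows, so that the share of rising windows was near that of all genes tested. The C/EBP motif, searched as TTNCNNAA, was found in 52.2% of rising, 44.3% of falling and 32.7% of tested windows. CACGTG, the E-box, was found in 5.51%, 6.65% and 9.69% of those 3 sets, and AGGTCA, the nuclear receptor half-site, in 20%, 18.3% and 12.9%. The mean GC content was 53.2% in rising, 54.8% in falling and 59.9% in tested windows, so the sets differed in base composition. These shares were not tested, and a match is not evidence of binding.

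Lipid enzymes were nearly balanced in number, and 42 of 146 were higher in IMQ skin and 47 lower, with a median log2 fold change of -0.07. Their summed CPM was lower in every IMQ library, at 14268, 13439 and 10726 in the IMQ libraries and 21409.5, 19148 and 18665 in the vaseline libraries. The rises included enzymes of barrier lipids and of inflammatory lipids. Cers3, the ceramide synthase of very long epidermal ceramides (ENSMUSG00000030510, chromosome 7, 66393252 to 66473439, plus strand), had 132, 173 and 149.7 CPM in IMQ skin, against 21.5, 18.5 and 20.9 CPM in vaseline skin (log2 fold change 2.90, SE 0.14, adjusted p = 6.31e-07). Alox8, a lipoxygenase of inflamed mouse skin, had 81.7, 50.8 and 215 CPM in IMQ skin, against 1.48, 1.11 and 0.951 CPM in vaseline skin (log2 fold change 6.60, SE 0.67), and its fold change was 5.76 without IMQ replicate 3. Pla2g4d, a cytosolic phospholipase A2 of keratinocytes, had 24.3, 8.36 and 33.2 CPM in IMQ skin, against 0, 0.0654 and 0.0594 CPM in vaseline skin. Only 2 vaseline reads were counted for it, giving a ratio of 559 (95% counting interval 154 to 4617), or 356 (98.4 to 2945) without vaseline replicate 1. The falls included enzymes of sebum lipids. Scd3, a desaturase of the sebaceous gland, had 16.8, 31.8 and 9.96 CPM in IMQ skin, against 658, 613 and 572 CPM in vaseline skin (log2 fold change -4.98, SE 0.52, adjusted p = 0.000182). Far2, a fatty acyl-CoA reductase of wax synthesis, had 72, 38.5 and 36.8 CPM in IMQ skin, against 745, 735 and 635 CPM in vaseline skin (log2 fold change -3.84, SE 0.45). Far2 and Scd3 are among the sebaceous gland markers given above, whose sum was also lower in every IMQ library.

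The carbonic anhydrases, which interconvert carbon dioxide and bicarbonate, divided evenly, and 4 of 12 were higher in IMQ skin and 4 lower, with a median log2 fold change of -0.37. Their summed CPM was 1934, 843 and 1501 in the IMQ libraries and 4262, 4129 and 4240.0 in the vaseline libraries, most of it from Car3, a form of muscle and fat. Car3 had 1493, 434 and 1142 CPM in IMQ skin, against 4067, 3952 and 4062 CPM in vaseline skin (log2 fold change -1.98, SE 0.38), with IMQ replicate 2 the lowest. The membrane form Car12 had 191, 172 and 172 CPM in IMQ skin, against 30.7, 26.7 and 21.8 CPM in vaseline skin (log2 fold change 2.76, SE 0.12, adjusted p = 5.72e-07), and the membrane form Car4 had 19.9, 16.2 and 9.4 CPM in IMQ skin, against 2.36, 3.92 and 3.33 CPM in vaseline skin (log2 fold change 2.25, SE 0.46). The cytosolic form Car2 rose by 2.49, or 1.90 without IMQ replicate 2, with 13.6, 31.2 and 11.1 CPM in IMQ skin, against 4.11, 2.94 and 2.85 CPM in vaseline skin. Car13 rose by 0.97, and Car8, a form without enzyme activity, fell with 1.09, 1.72 and 1.58 CPM in IMQ skin, against 5.1, 10.5 and 6.06 CPM in vaseline skin (log2 fold change -2.29, SE 0.35).

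Of enzymes that build and sulfate sugars, 30 of 112 were higher in IMQ skin and 37 lower, with a median log2 fold change of 0.00. Has3, a hyaluronan synthase, had 63.7, 18.3 and 66.4 CPM in IMQ skin, against 4.22, 3.99 and 4.16 CPM in vaseline skin (log2 fold change 3.58, SE 0.47), with IMQ replicate 2 the lowest of its group. The other hyaluronan synthases did not pass, Has1 with adjusted p = 0.647 and Has2 with adjusted p = 0.0852. The mucin-type glycosylation starters Galnt6 and Galnt3 rose, the first with 54.6, 51.9 and 66.3 CPM in IMQ skin, against 6.8, 7.06 and 4.4 CPM in vaseline skin (log2 fold change 3.24, SE 0.18, adjusted p = 1.39e-06) and the second with 24.7, 28.6 and 21.1 CPM in IMQ skin, against 4.33, 4.05 and 5.88 CPM in vaseline skin (log2 fold change 2.38, SE 0.21). Galnt5 of the same class fell with 0.728, 0.701 and 1.73 CPM in IMQ skin, against 7.02, 5.3 and 7.31 CPM in vaseline skin (log2 fold change -2.62, SE 0.38), and its fold change was -3.21 without IMQ replicate 3. Chst3, a chondroitin sulfotransferase, fell by 1.64 on the log2 scale.

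Of proteases, 65 of 176 (36.9%) were higher in IMQ skin and 52 (29.5%) lower, both above the 23% and 20.2% of all genes tested. The median log2 fold change was 0.21. The secreted kallikrein Klk13 (ENSMUSG00000054046, chromosome 7, 43361991 to 43376958, plus strand) had 172, 147 and 245 CPM in IMQ skin, against 4.06, 1.9 and 1.25 CPM in vaseline skin (log2 fold change 6.27, SE 0.44), and its fold change was 6.87 without vaseline replicate 1. Tmprss11g, a transmembrane serine protease of stratified epithelia, had 59.9, 46.7 and 60.5 CPM in IMQ skin, against 2.03, 1.7 and 2.08 CPM in vaseline skin (log2 fold change 4.84, SE 0.25, adjusted p = 9.91e-07). Mmp8, the neutrophil collagenase, had 85.6, 15.6 and 22.6 CPM in IMQ skin, against 0.384, 0.196 and 0.476 CPM in vaseline skin (log2 fold change 6.83, SE 0.86), and its fold change was 5.69 without IMQ replicate 1. Among the falls, Enpep, the aminopeptidase that trims angiotensin II, had 6.18, 5.39 and 7.16 CPM in IMQ skin, against 51, 53.4 and 39.4 CPM in vaseline skin (log2 fold change -2.94, SE 0.16, adjusted p = 9.91e-07). Cpz, a carboxypeptidase that binds Wnt proteins, had 31, 40.9 and 66.2 CPM in IMQ skin, against 298, 341 and 278 CPM in vaseline skin (log2 fold change -2.73, SE 0.29). Mmp23 fell by 2.22 on the log2 scale.

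Redox enzymes were mixed: 14 of 36 were higher in IMQ skin and 10 lower, with a median log2 fold change of 0.19. The count of rises was 9 without IMQ replicate 1 or vaseline replicate 2 and 8 without vaseline replicate 1 or 3. Gpx1, the cytosolic glutathione peroxidase, had 761, 622 and 820.1 CPM in IMQ skin, against 264, 295 and 269 CPM in vaseline skin (log2 fold change 1.41, SE 0.14). Gpx4, which removes lipid peroxides with glutathione and protects from ferroptosis, had 182, 192 and 146 CPM in IMQ skin, against 389, 355 and 351 CPM in vaseline skin (log2 fold change -1.07, SE 0.11). Mpo, the myeloperoxidase that neutrophil precursors store in their granules, fell while the neutrophil marker sum, mostly from S100a8 and S100a9, was higher. It had 1.97, 0.701 and 0.508 CPM in IMQ skin, against 23.2, 39.1 and 31.2 CPM in vaseline skin (log2 fold change -4.87, SE 0.43, adjusted p = 2.92e-05), and its fold change was -5.70 without IMQ replicate 1. The NADPH oxidase subunits Cybb and Ncf1 rose by 0.75 and 0.97. Among dual-specificity phosphatases, which switch off MAP kinases, 5 of 23 were higher in IMQ skin and 8 lower, with a median log2 fold change of -0.26, and 3 were higher without vaseline replicate 1 or 2. Dusp10, a phosphatase of the stress kinases, had 5.87, 5.55 and 4.93 CPM in IMQ skin, against 19.3, 28.8 and 22.1 CPM in vaseline skin (log2 fold change -2.10, SE 0.19), and Dusp7 had 146, 150.3 and 129.5 CPM in IMQ skin, against 66.2, 60.6 and 67.3 CPM in vaseline skin (log2 fold change 1.13, SE 0.10).

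Genes that the deposited table annotates with a transcription factor family were counted together: of 1190 tested, 225 (18.9%) rose and 204 (17.1%) fell, beside 23% and 20.2% of all genes. Of them 54 rose and 90 fell at least 2-fold. Homeobox factors leaned to falls, and 11 of 94 were higher in IMQ skin and 33 lower, with a median log2 fold change of -0.14. The count of rises was 6 without vaseline replicate 1 and 7 without vaseline replicate 2 or 3. Pitx1, a factor of hindlimb identity, rose with 7.07, 7.82 and 7.42 CPM in IMQ skin, against 1.15, 1.7 and 1.6 CPM in vaseline skin (log2 fold change 2.32, SE 0.21). Dlx5 rose by 1.82. Hoxc5 had 2.03, 2.21 and 2.44 CPM in IMQ skin, against 9.98, 9.22 and 7.31 CPM in vaseline skin (log2 fold change -1.99, SE 0.22). Pitx1 overlaps a predicted gene on the opposite strand that was also higher, and Hoxc5 overlaps its HoxC neighbours, so these counts may include reads of those genes.

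Of the Sox, Fox, Klf, Gata and T-box factors, 31 of 119 were higher in IMQ skin and 19 lower, with a median log2 fold change of 0.06. The list also took in factors of other classes, among them Bnc1, Ikzf3 and Osr2, named below. Bnc1, basonuclin of proliferating basal keratinocytes, had 34.5, 37.5 and 47.4 CPM in IMQ skin, against 9.32, 9.54 and 9.33 CPM in vaseline skin (log2 fold change 2.08, SE 0.13, adjusted p = 2.58e-06). Foxn1, a regulator of keratinocyte differentiation and of the hair coat, had 14.9, 13.3 and 23.6 CPM in IMQ skin, against 4.33, 3.14 and 3.98 CPM in vaseline skin (log2 fold change 2.17, SE 0.23). Ikzf3, a lymphocyte factor, had 16.2, 13.4 and 24.1 CPM in IMQ skin, against 4.44, 3.46 and 3.63 CPM in vaseline skin (log2 fold change 2.22, SE 0.24). Sox4 rose by 2.52, with 119, 325 and 98.9 CPM in IMQ skin, against 29.3, 32.8 and 32.6 CPM in vaseline skin, and its fold change was 1.79 without IMQ replicate 2. Osr2 fell by 1.71 on the log2 scale.

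Among basic helix-loop-helix factors, 14 of 70 (20%) were higher in IMQ skin and 16 (22.9%) lower, near the 23% and 20.2% of all genes tested. The median log2 fold change was -0.06, and 9 were lower without vaseline replicate 2. Tcf23, a little-studied member (ENSMUSG00000006642, chromosome 5, 31126006 to 31134362, plus strand), had 20.8, 22.7 and 25.3 CPM in IMQ skin, against 0.439, 0.131 and 0.119 CPM in vaseline skin (log2 fold change 6.56, SE 0.30, adjusted p = 5.84e-07). Its IMQ libraries were closely grouped, and its fold change was 7.42 without vaseline replicate 1. Hif1a, the hypoxia-inducible factor, had 351, 258 and 406 CPM in IMQ skin, against 87.4, 96.1 and 101 CPM in vaseline skin (log2 fold change 1.84, SE 0.18), and Hif3a had 18.7, 15.4 and 8.94 CPM in IMQ skin, against 4, 2.68 and 3.8 CPM in vaseline skin (log2 fold change 2.03, SE 0.31). Myf6, a factor of differentiated muscle, fell by 1.86 on the log2 scale. Among bZIP factors, 16 of 53 were higher in IMQ skin and 12 lower, with a median log2 fold change of 0.09. Cebpd, a factor of the acute-phase response, rose by 1.43. Creb3l1, a factor of collagen-secreting cells, had 22.5, 27.9 and 28.9 CPM in IMQ skin, against 94.3, 114 and 102 CPM in vaseline skin (log2 fold change -1.97, SE 0.12, adjusted p = 1.73e-06), and Creb3l3 had 3.27, 3.61 and 4.27 CPM in IMQ skin, against 25.1, 23.4 and 17.2 CPM in vaseline skin (log2 fold change -2.56, SE 0.21). The AP-1 genes Fos, Fosb, Jun and Junb did not pass (adjusted p = 0.122, 0.155, 0.323 and 0.352 in that order), with vaseline levels that ran from 111 to 1102 CPM for Fos and from 9.98 to 1091 CPM for Fosb.

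Circadian clock genes cut across these classes: of 16 listed and tested, 4 rose and 8 fell, beside 23% and 20.2% of all genes tested. This list, too, was added after values had been seen. The rise of Clock did not pass without IMQ replicate 1 (log2 fold change 0.27), vaseline replicate 1 (0.26) or vaseline replicate 2 (0.31). The output factor Dbp had 10.9, 9.33 and 15.5 CPM in IMQ skin, against 130.3, 126 and 133 CPM in vaseline skin (log2 fold change -3.44, SE 0.22, adjusted p = 4.67e-06), and Bhlhe41 had 4, 6.15 and 4.98 CPM in IMQ skin, against 35.4, 33.2 and 31.6 CPM in vaseline skin (log2 fold change -2.73, SE 0.25, adjusted p = 2.16e-05). The repressor Nr1d1 had 27.5, 37.4 and 24.8 CPM in IMQ skin, against 187, 187 and 175 CPM in vaseline skin (log2 fold change -2.61, SE 0.15). Its relative Nr1d2 averaged 84.7 ± 16.9 CPM in IMQ skin and 222 ± 19.7 CPM in vaseline skin (SD, n = 3 each; log2 fold change -1.39, SE 0.15). Arntl, the core activator, rose with 30.2, 43.5 and 23.7 CPM in IMQ skin, against 9.92, 11.6 and 13 CPM in vaseline skin (adjusted p = 0.000525 by edgeR), as did Nfil3, which competes with Dbp for its sites, with 39.8, 77.4 and 36.6 CPM in IMQ skin, against 13.9, 10.1 and 11.3 CPM in vaseline skin (log2 fold change 2.12, SE 0.30). Cry1 rose by 1.70 while Cry2 fell by 0.74 on the log2 scale. Per1 and Per2 did not pass (adjusted p = 0.631 and adjusted p = 0.944). Dbp overlaps Sphk2 and Nr1d1 overlaps Thra on the opposite strand, and strand use in the counting is not given in the sources used here. The hour of collection was not stated for either group, and its part in these values was not tested.

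Nuclear receptors, the ligand-switched factors, leaned to falls, and 4 of 37 were higher in IMQ skin and 13 lower, with a median log2 fold change of -0.40. The count of rises was 2 without IMQ replicate 2, 2 without IMQ replicate 3 and 1 without any single vaseline library. Ppard, a sensor of fatty acids, rose with 118, 108 and 139.7 CPM in IMQ skin, against 39.9, 42.1 and 37.5 CPM in vaseline skin (log2 fold change 1.62, SE 0.13, adjusted p = 8.64e-06), and was the one of the 4 rises that passed under every alternative run. The mineralocorticoid receptor Nr3c2 had 5.56, 4.58 and 3.86 CPM in IMQ skin, against 14.9, 12.9 and 16.3 CPM in vaseline skin (log2 fold change -1.66, SE 0.20). The oestrogen receptor Esr1 had 29.2, 13.9 and 9.96 CPM in IMQ skin, against 63, 76 and 56.1 CPM in vaseline skin (log2 fold change -1.88, SE 0.36), and its fold change was -2.48 without IMQ replicate 1. Of the IRF, STAT, Rel, Runx, Ets and epithelial factors, 36 of 95 were higher in IMQ skin and 15 lower, with a median log2 fold change of 0.22. The list also took in Mef2c, named below, which is of another class. Ehf, an Ets factor of epithelia (ENSMUSG00000012350, chromosome 2, 103093778 to 103133623, minus strand), had 154, 176 and 191 CPM in IMQ skin, against 24.8, 23.4 and 23.1 CPM in vaseline skin (log2 fold change 2.87, SE 0.15, adjusted p = 9.91e-07). Grhl3, the Grainyhead factor of barrier formation and wound repair (ENSMUSG00000037188, chromosome 4, 135269199 to 135300941, minus strand), had 122, 134 and 142 CPM in IMQ skin, against 28, 20.9 and 23.2 CPM in vaseline skin (log2 fold change 2.47, SE 0.14, adjusted p = 1.39e-06). Mef2c, a factor of muscle and other lineages, fell with 50, 36.2 and 47.1 CPM in IMQ skin, against 151, 145 and 158 CPM in vaseline skin (log2 fold change -1.77, SE 0.12), and Irf4, a factor of lymphocytes and dendritic cells, fell with 22.7, 22.7 and 25.7 CPM in IMQ skin, against 45.5, 61.6 and 70.6 CPM in vaseline skin (log2 fold change -1.32, SE 0.20).

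**Figure D5:**
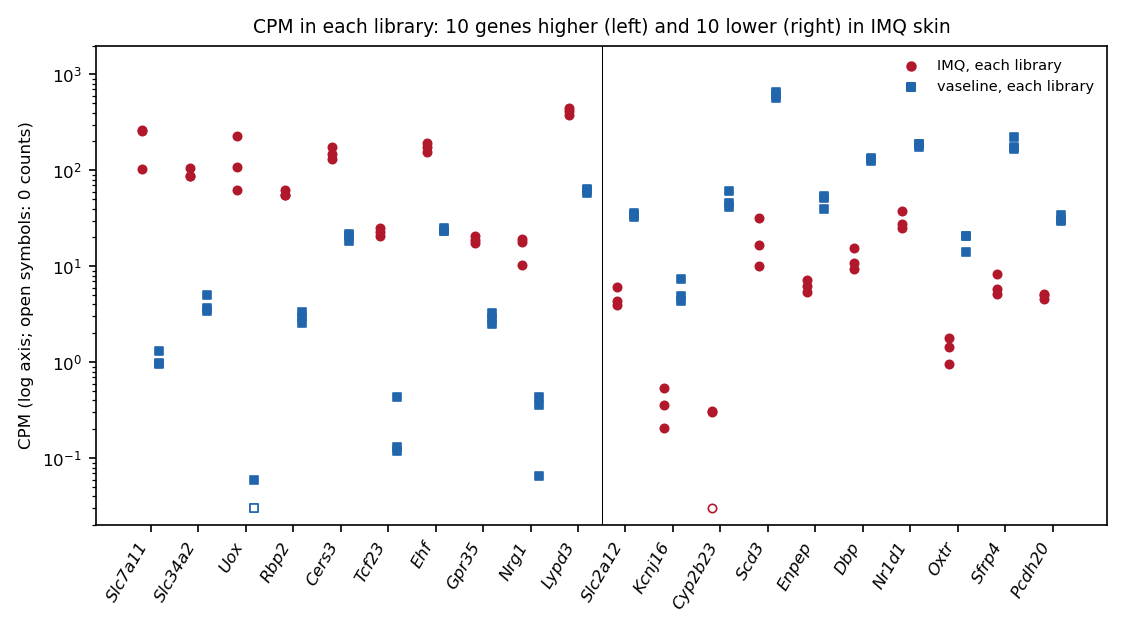
CPM in each library (log axis) of 10 genes that rose, left of the vertical line, and 10 that fell, right of it, with IMQ libraries as red circles left of the vaseline libraries as blue squares and open symbols for 0 counts. In all 20 genes the 3 IMQ values lie wholly above or wholly below the 3 vaseline values, and Uox, at 61.9 to 229 CPM, shows the widest spread of the IMQ libraries among the 10 genes that rose.

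Of G protein-coupled receptors outside the chemokine receptors, 50 of 208 were higher in IMQ skin and 62 lower, with a median log2 fold change of -0.15. Gpr35, a receptor for lipid and tryptophan metabolites found on gut and immune cells, had 18.8, 17.4 and 20.7 CPM in IMQ skin, against 2.85, 3.27 and 2.5 CPM in vaseline skin (log2 fold change 2.72, SE 0.21, adjusted p = 7.58e-06). Htr1b, a serotonin receptor (ENSMUSG00000049511, chromosome 9, 81510344 to 81515881, minus strand), had 4.89, 5.66 and 8.33 CPM in IMQ skin, against 0.274, 0.392 and 0.297 CPM in vaseline skin (log2 fold change 4.27, SE 0.38, adjusted p = 1.97e-05). The formyl peptide receptors of neutrophils also rose. Fpr2 had 35.2, 8.41 and 25 CPM in IMQ skin, against 1.54, 1.31 and 2.32 CPM in vaseline skin (log2 fold change 3.72, SE 0.54), and Fpr1 had 23.5, 4.2 and 17.3 CPM in IMQ skin, against 0.164, 0 and 0.357 CPM in vaseline skin (log2 fold change 6.34, SE 0.87). Without vaseline replicate 3 only 3 vaseline reads of Fpr1 were left, and the ratio was 169 (95% counting interval 57.8 to 823). The falls included receptors of hormones and prostaglandins. Oxtr, the oxytocin receptor (ENSMUSG00000049112, chromosome 6, 112450644 to 112466904, minus strand), had 1.46, 1.78 and 0.965 CPM in IMQ skin, against 14, 20.5 and 20.7 CPM in vaseline skin (log2 fold change -3.71, SE 0.28, adjusted p = 7.58e-06). Crhr2, a receptor of the corticotropin-releasing hormone family, had 1.51, 1.94 and 2.59 CPM in IMQ skin, against 16.2, 17.9 and 16.1 CPM in vaseline skin (log2 fold change -3.05, SE 0.23, adjusted p = 7.33e-06). Ptger3, a prostaglandin E2 receptor, had 8.16, 9.76 and 15.5 CPM in IMQ skin, against 62.8, 51.2 and 60.6 CPM in vaseline skin (log2 fold change -2.38, SE 0.24). Npr3, the clearance receptor of natriuretic peptides, which has a single membrane span and was caught by the pattern of the list, had 5.87, 5.01 and 6.71 CPM in IMQ skin, against 20.9, 40.7 and 35.3 CPM in vaseline skin (log2 fold change -2.46, SE 0.24).

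Receptor tyrosine kinases and phosphatases were close to balance: 18 of 63 were higher in IMQ skin and 16 lower, with a median log2 fold change of -0.06. The rises included the receptors Tyro3 and Mertk, which clear apoptotic cells, by 1.16 and 1.04. Epha2, an ephrin receptor of epithelia, had 104, 106 and 93 CPM in IMQ skin, against 38.8, 32 and 35.8 CPM in vaseline skin (log2 fold change 1.51, SE 0.13). Ddr2, a collagen receptor of fibroblasts, fell with 124, 96.2 and 121 CPM in IMQ skin, against 256, 284 and 251 CPM in vaseline skin (log2 fold change -1.21, SE 0.12). Of the TNF receptor family and cytokine receptors, 34 of 96 were higher in IMQ skin and 24 lower, with a median log2 fold change of 0.09. Csf3r, the G-CSF receptor of neutrophils, had 109, 38.8 and 89 CPM in IMQ skin, against 12.1, 13.4 and 16.9 CPM in vaseline skin (log2 fold change 2.48, SE 0.38). Il12rb1 rose by 1.75 while its partner Il12rb2 fell by 2.30 on the log2 scale, with 1.25, 1.08 and 1.22 CPM in IMQ skin, against 5.21, 4.58 and 7.73 CPM in vaseline skin. Il12rb2 overlaps the far more strongly counted Serbp1, which was higher in IMQ skin, on the opposite strand. Il31ra, the receptor chain of the itch cytokine IL-31, had 13.5, 8.68 and 4.88 CPM in IMQ skin, against 41.1, 51.2 and 36 CPM in vaseline skin (log2 fold change -2.24, SE 0.41). Prlr, the prolactin receptor, had 11.1, 14 and 6.66 CPM in IMQ skin, against 42.5, 42.6 and 45.6 CPM in vaseline skin (log2 fold change -2.04, SE 0.24).

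Lectin, scavenger and immunoglobulin-like receptors leaned to rises, and 55 of 139 were higher in IMQ skin and 25 lower, with a median log2 fold change of 0.29. Cd300lf and Cd300e, receptors of myeloid cells, rose, the first with 49, 24.1 and 32.9 CPM in IMQ skin, against 1.32, 1.44 and 2.2 CPM in vaseline skin (log2 fold change 4.41, SE 0.39) and the second with 22, 5.28 and 13.1 CPM in IMQ skin, against 0.329, 0.131 and 0.238 CPM in vaseline skin (log2 fold change 5.78, SE 0.71). Scart1, a scavenger receptor of gamma-delta T cells, had 58.1, 48.6 and 96.6 CPM in IMQ skin, against 4.93, 6.6 and 6.72 CPM in vaseline skin (log2 fold change 3.48, SE 0.38). Marker sums of several immune cells moved in the same libraries, and their part in these receptors was not tested. Beside the neutrophil sums given above, T cell markers had summed CPM of 48.8, 56.3 and 76.7 in the IMQ libraries and 26.9, 28.7 and 31.3 in the vaseline libraries, with 5 of 7 higher, among them the gamma-delta receptor gene Trdc (log2 fold change 2.17, SE 0.33). Macrophage markers had summed CPM of 2804, 2132 and 1784 in the IMQ libraries and 1548, 1733 and 1441 in the vaseline libraries, with 4 of 7 higher. Dendritic and Langerhans cell markers had summed CPM of 641, 780.1 and 868 in the IMQ libraries and 1543, 1498 and 1663 in the vaseline libraries, with 3 of 6 lower and 1 higher. The dendritic cell lectin Cd209a fell, with 1.09, 3.18 and 6.4 CPM in IMQ skin, against 37.9, 44.3 and 38.5 CPM in vaseline skin (log2 fold change -3.49, SE 0.48), and its fold change was -4.27 without IMQ replicate 3. The secreted lectins Clec3b and Clec11a fell with fibroblast markers, Clec3b with 108, 81 and 114 CPM in IMQ skin, against 805, 976 and 818 CPM in vaseline skin (log2 fold change -3.10, SE 0.15, adjusted p = 7.05e-07) and Clec11a with 4.73, 7.28 and 10.7 CPM in IMQ skin, against 78.2, 90.6 and 70.2 CPM in vaseline skin (log2 fold change -3.39, SE 0.31).

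Growth factors and their binding proteins leaned to falls, and 22 of 132 were higher in IMQ skin and 63 lower, with a median log2 fold change of -0.68. Ligands of the EGF family ran the other way. Of 10 tested 6 rose, 2 fell and 2 did not pass, beside 23% of all genes tested that rose and 20.2% that fell. The median log2 fold change of the 10 was 2.22, and the list was added after values had been seen. Nrg1, a ligand of ERBB3 and ERBB4 (ENSMUSG00000062991, chromosome 8, 32304579 to 33374825, minus strand), had 18, 10.3 and 19.2 CPM in IMQ skin, against 0.439, 0.0654 and 0.357 CPM in vaseline skin (log2 fold change 5.71, SE 0.50, adjusted p = 2.03e-05). Hbegf had 90.7, 69 and 63.4 CPM in IMQ skin, against 4.28, 9.68 and 16.6 CPM in vaseline skin (log2 fold change 2.87, SE 0.45), and Tgfa had 76.7, 73.5 and 71.6 CPM in IMQ skin, against 17.8, 13.9 and 16.3 CPM in vaseline skin (log2 fold change 2.21, SE 0.17, adjusted p = 7.85e-06). Ereg had 57, 79.2 and 27.3 CPM in IMQ skin, against 10.7, 8.5 and 15.2 CPM in vaseline skin (log2 fold change 2.24, SE 0.40). Epgn had 35.8, 51 and 36.7 CPM in IMQ skin, against 2.96, 0.915 and 8.38 CPM in vaseline skin (log2 fold change 3.32, SE 0.63), with a fold change of 4.34 without vaseline replicate 3, and Areg rose by 2.36, or 3.13 without vaseline replicate 3. Egf itself fell with 6.29, 2.21 and 4.88 CPM in IMQ skin, against 12.6, 16.4 and 16.7 CPM in vaseline skin (log2 fold change -1.77, SE 0.33). Their receptors had small fold changes. Egfr fell by 0.38 on the log2 scale, Erbb3 rose by 0.61 and Erbb2 did not pass (adjusted p = 0.065).

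The falls included secreted modulators of Wnt signalling. Of 8 tested Wnt antagonists, a list added after values had been seen, 5 fell and the other 3 did not pass, beside 20.2% of all genes tested that fell. The fall of Sfrp5 did not pass without IMQ replicate 3 (log2 fold change -0.54), vaseline replicate 2 (-0.47) or vaseline replicate 3 (-0.60). Sfrp4 (ENSMUSG00000021319, chromosome 13, 19807274 to 19817164, plus strand) had 5.82, 5.12 and 8.38 CPM in IMQ skin, against 166, 223 and 177 CPM in vaseline skin (log2 fold change -4.87, SE 0.19, adjusted p = 2.67e-07), and Sfrp2 (ENSMUSG00000027996, chromosome 3, 83673628 to 83681623, plus strand) had 3.17, 5.12 and 3.96 CPM in IMQ skin, against 95.1, 167 and 87.7 CPM in vaseline skin (log2 fold change -4.84, SE 0.30, adjusted p = 4.71e-06). Frzb had 1.61, 1.78 and 3.3 CPM in IMQ skin, against 17, 17.8 and 15.5 CPM in vaseline skin (log2 fold change -2.90, SE 0.32), and Sfrp1 had 26.8, 20.3 and 31.1 CPM in IMQ skin, against 66, 66.9 and 66.7 CPM in vaseline skin (log2 fold change -1.35, SE 0.15). The ligand Wnt2 had 1.46, 0.485 and 0.508 CPM in IMQ skin, against 13.8, 26.7 and 19.9 CPM in vaseline skin (log2 fold change -4.61, SE 0.41), and its fold change was -5.35 without IMQ replicate 1. Fgf18 had 0.572, 0.162 and 0.559 CPM in IMQ skin, against 5.48, 6.15 and 6 CPM in vaseline skin (log2 fold change -3.74, SE 0.47). These are genes of dermal cells among others, and fibroblast markers fell in the same libraries by a median of 2.16 on the log2 scale. Of guidance and neural signals, 22 of 87 (25.3%) were higher in IMQ skin and 19 (21.8%) lower, near the 23% and 20.2% of all genes tested. The median log2 fold change was -0.02. The list also took in Retnla, named below, which is of another class. The repellents Sema3d and Sema3b fell, Sema3d with 16.1, 18.7 and 13.5 CPM in IMQ skin, against 107, 101 and 125 CPM in vaseline skin (log2 fold change -2.78, SE 0.16, adjusted p = 1.39e-06) and Sema3b with 33.9, 35.6 and 50.1 CPM in IMQ skin, against 226, 250.5 and 233 CPM in vaseline skin (log2 fold change -2.57, SE 0.18). Retnla, a resistin-like protein of type 2 immune responses (ENSMUSG00000061100, chromosome 16, 48662914 to 48664824, plus strand), had 4.89, 1.02 and 4.01 CPM in IMQ skin, against 287, 395 and 268 CPM in vaseline skin (log2 fold change -6.57, SE 0.46, adjusted p = 2.06e-05). Its relative Retnlg, a neutrophil product, rose by 3.83, or 2.52 without IMQ replicate 1. The guidance receptor Robo1 rose by 1.19 and the semaphorin Sema4d by 1.02.

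Among gasdermins and Ly6 proteins, 12 of 32 were higher in IMQ skin and 6 lower, with a median log2 fold change of 0.49, and 10 were lower without IMQ replicate 2. Gasdermins form membrane pores after cleavage. Gsdmc (ENSMUSG00000079025, chromosome 15, 63647817 to 63680608, minus strand) had 72.4, 41.6 and 50.8 CPM in IMQ skin, against 1.97, 1.18 and 0.535 CPM in vaseline skin (log2 fold change 5.46, SE 0.38, adjusted p = 1.26e-05), and Gsdma, the epidermal form, had 102, 244 and 136 CPM in IMQ skin, against 68.7, 64.9 and 60.4 CPM in vaseline skin (log2 fold change 1.31, SE 0.28), while Gsdmd, the form of inflammatory macrophages, did not pass (adjusted p = 0.605). Lypd3, a Ly6 protein of suprabasal epithelium (ENSMUSG00000057454, chromosome 7, 24335975 to 24340543, plus strand), had 374, 451 and 411 CPM in IMQ skin, against 62.1, 57.5 and 64.3 CPM in vaseline skin (log2 fold change 2.75, SE 0.10, adjusted p = 2.44e-07). Of cadherins, claudins and protocadherins, 18 of 103 (17.5%) were higher in IMQ skin and 24 (23.3%) lower, with a median log2 fold change of -0.09. Cdh3, the P-cadherin of basal cells, had 90.5, 102 and 113 CPM in IMQ skin, against 26.7, 24.4 and 26.5 CPM in vaseline skin (log2 fold change 1.98, SE 0.10), and Cdh4 had 5.14, 3.34 and 8.38 CPM in IMQ skin, against 49.5, 49.4 and 49.8 CPM in vaseline skin (log2 fold change -3.13, SE 0.28). Pcdh20 had 4.57, 5.12 and 5.03 CPM in IMQ skin, against 34.5, 29.5 and 30.3 CPM in vaseline skin (log2 fold change -2.68, SE 0.16, adjusted p = 1.86e-06). Connexins form gap junctions between cells. Gjb2 had 688, 326 and 848 CPM in IMQ skin, against 9.87, 9.54 and 5.94 CPM in vaseline skin (log2 fold change 6.20, SE 0.43), Gjb6 had 127, 77.9 and 169.7 CPM in IMQ skin, against 1.86, 1.7 and 1.72 CPM in vaseline skin (log2 fold change 6.14, SE 0.35, adjusted p = 4.71e-06) and Gja1 had 715, 673 and 921 CPM in IMQ skin, against 231, 255 and 251 CPM in vaseline skin (log2 fold change 1.65, SE 0.14), while Gjb5 fell by 1.36 on the log2 scale. Of mucins, lipocalins and binding proteins, 16 of 51 were higher in IMQ skin and 12 lower, with a median log2 fold change of 0.01. The acute-phase gene Saa3 had 1404, 221 and 463 CPM in IMQ skin, against 0.384, 0.85 and 0.535 CPM in vaseline skin (log2 fold change 10.22, SE 1.03), with IMQ replicate 1 the highest, and its fold change was 9.16 without IMQ replicate 1.

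Some of the largest changes belonged to genes of none of these families. Teddm3 (ENSMUSG00000090356, chromosome 16, 20971405 to 20972750, minus strand), a member of the transmembrane epididymal protein family, had 65.2, 59.8 and 79.4 CPM in IMQ skin, against 0.11, 0.458 and 0.297 CPM in vaseline skin (log2 fold change 7.90, SE 0.27, adjusted p = 2.44e-07), with close IMQ libraries. The cystatin-like genes Cstdc5 and Cstdc6, copies of similar sequence that may share reads, had, in that order, 696, 345 and 608 CPM in IMQ skin, against 0.987, 0.981 and 0.535 CPM in vaseline skin (log2 fold change 9.35, SE 0.41) and 269, 91.4 and 222 CPM in IMQ skin, against 0.384, 0 and 0.297 CPM in vaseline skin (log2 fold change 9.64, SE 0.69). Chil3, a chitinase-like protein of macrophages and neutrophils, rose by 6.58, or 5.80 without IMQ replicate 1 and 7.85 without vaseline replicate 1. Among the falls, the secreted serpin Serpina3b (ENSMUSG00000066364, chromosome 12, 104094255 to 104105804, plus strand) had 1.4, 0.431 and 0.915 CPM in IMQ skin, against 204, 248 and 193 CPM in vaseline skin (log2 fold change -7.86, SE 0.32, adjusted p = 7.05e-07). Aqp4, a water channel of muscle and brain, had 0.104, 0.539 and 0.152 CPM in IMQ skin, against 22.4, 31.4 and 31.3 CPM in vaseline skin (log2 fold change -6.72, SE 0.40, adjusted p = 1.76e-06), or -7.71 without IMQ replicate 2. Acoxl, an acyl-CoA oxidase relative, had 0.52, 0.27 and 0.762 CPM in IMQ skin, against 27.2, 27.7 and 25.3 CPM in vaseline skin (log2 fold change -5.66, SE 0.33, adjusted p = 1.39e-06).

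Muscle genes outside the marker list were also among the largest falls. Mylk4, a myosin light chain kinase of striated muscle, had 1.4, 0.539 and 6.96 CPM in IMQ skin, against 236, 153 and 223 CPM in vaseline skin (log2 fold change -6.09, SE 0.71), and its fold change was -7.72 without IMQ replicate 3. Ky, the kyphoscoliosis peptidase of muscle, had 2.29, 0.539 and 3.4 CPM in IMQ skin, against 122, 138 and 131 CPM in vaseline skin (log2 fold change -5.95, SE 0.45, adjusted p = 2.83e-05). Mylk4 and Ky were picked for the size of their falls. That these were larger than those of the 10 skeletal muscle markers, of which the lowest was -4.93, follows from that choice. The marker Acta1, skeletal alpha-actin, had 1166, 1726 and 1373 CPM in IMQ skin, against 6256, 6413 and 6804 CPM in vaseline skin (log2 fold change -2.19, SE 0.13). Tmem233, a small membrane protein, had 0.312, 0.97 and 1.17 CPM in IMQ skin, against 31.6, 28.3 and 30.1 CPM in vaseline skin (log2 fold change -5.19, SE 0.32). Aadacl4, a lipase-like protein, fell by 5.21 on the log2 scale, or -6.08 without IMQ replicate 1.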

How the data were processed

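RNA was sequenced from shaved back skin of BALB/c mice in 9 libraries, 3 for each of 3 treatments. The authors deposited raw read counts and FPKM values per gene in 1 table of 56861 rows. The submitters' processing notes name Trimmomatic for trimming, HISAT2 for alignment, the genome build GRCm39 and HTSeq 0.6.0 for counting. Strand use in the counting is not given in the sources used here. The deposited quality table gives raw reads, bases, mean quality and the percent of GC, Q20 and Q30 bases per library. The FPKM and quality values were not needed for any test, and the 2 rows that name no gene held 0 counts (0%).

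Each library was assigned to its treatment from its label. Genes passing a filter on low counts (edgeR's filterByExpr, minimum count 10, minimum total 15) were scaled by TMM and fitted with edgeR 4.0.16 (R 4.3.3, limma 3.58.1) in a quasi-likelihood model of all 9 libraries. The contrast was IMQ minus vaseline, two-sided, with Benjamini-Hochberg adjustment over 18005 genes and a threshold of 0.05. The standard error is the absolute log2 fold change divided by the square root of the F statistic. Counting intervals are 95% and exact, and like the floor of 3 counts they cover counting error only. Same-numbered libraries did not deviate together (correlations -0.061, -0.033 and -0.091), so replicate numbers were not used as a pairing. The procedure was tested on simulated counts.

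In each family of transporters, enzymes, factors, receptors and signals, the genes named are taken from the 4 largest rises and 4 largest falls. These were limited to genes with an adjusted p under 0.05, groups that did not overlap, at least 5 CPM in the higher group, and a symbol that is neither predicted nor in a list of usual psoriasis genes. Over all genes, the 12 largest in each direction with at least 20 CPM were added, and the 12 largest differences in mean CPM without the exclusion of psoriasis genes. Further genes come from 10 short lists (EGF family ligands and receptors, urate steps, the sodium-potassium pump, immediate early genes, clock genes, Wnt antagonists, hyaluronan synthases, gasdermins and connexins), added after values had been seen. The families, lists and members were chosen with earlier results of these data known. Alternatives were DESeq2's size factors within edgeR, DESeq2 1.42.0, no filter, the 6 libraries alone, a replicate block and leaving out each library. Coordinates are those of the deposited table. Promoter windows come from RefSeq on another build (GRCm38.p6) and were matched by symbol.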

Additional observations from a re-analysis of the deposited data

How the results depend on the processing

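The number of genes called was 7783 in the fit described. It was 7752 with DESeq2's size factors, 8021 with DESeq2's own test, 7356 with no filter on low counts and 6529 with the 6 libraries alone. With the replicate block, which the pairing check did not call for, it was 7263. Leaving out 1 of the 6 libraries gave 6218 to 8212 called genes, and all counts over all genes stayed within 1.5 times of those reported. No named gene changed sign under any of the 11 alternatives. Of 317 genes named by the rule or on the short lists, 300 kept their call without each of the 6 libraries in turn, and 53 had a fold change that moved by over 1.5 times without 1 of them. Of the family counts under alternatives 641 stayed within 1.5 times of the count reported, 18 fell below that range and 1 rose above it. Beyond those that leave out 1 library, these were the rises of dual-specificity phosphatases (3 with the 6 libraries alone), of homeobox factors (7 with the 6 libraries alone) and of nuclear receptors (2 with the replicate block). The median of all genes moved by less than 0.1 on the log2 scale under every alternative. With 3 libraries a group and fold changes against 0 to 3 reads, such as those of Uox, Acod1 and Pla2g4d, the size of the change is poorly known. The counting intervals given leave out the spread between libraries, which for Uox ran from 61.9 to 229 CPM in IMQ skin.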
